A study of Mus musculus with 42 samples.

Results

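A pair of library kits read RNA bound to tagged ribosomes of the same mouse livers: the NuGEN Ovation RNA-Seq System V2 (NuG) and the TruSeq RNA kit v2 with 4 ng of RNA (Tru4). The comparison rests on 6 of the 42 libraries of the series, 3 IP libraries per kit, and on the exon counts of 47729 genes, of which 14741 passed the filter on low counts and were tested. IP is RNA precipitated through the HA tag of the ribosomes, and input is the RNA of the whole homogenate. Genes and RNA classes that were higher or lower in NuG IP than in Tru4 IP are described, each with its level in every library.

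The 6 libraries came from 3 mice of the genotype Gfi1Cre/+ with the RiboTag allele of Rpl22, and each mouse gave 1 library per kit. Gfi1-Cre switches the HA-tagged ribosomal protein on in cells that express Gfi1 or once did, and the tag therefore marks a subset of liver cells. Mice were untreated and, by the study's methods and the labels' protocols, 30 days old, while another label names pups of postnatal day 1. By the study's methods the kits were given aliquots of the same RNA, 4 ng per library, so that the cells behind it were the same for both. For Tru4, poly(A) RNA was selected, fragmented by heat and copied with random primers, and the library went through 22 PCR cycles. For NuG, RNA was copied without poly(A) selection, with oligo-dT and semi-random primers, and the amplified cDNA was sheared and made into a library with 8 PCR cycles. Selection, priming and amplification changed together between the kits and cannot be told apart.

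Most cytosolic mRNAs carry a poly(A) tail, which poly(A) selection uses to hold mRNA and leave ribosomal RNA behind. Mitochondrial rRNAs, the histone mRNAs of S phase, RNA polymerase III transcripts and nascent pre-mRNA have short tails or none. Kits without selection rely on their primers to avoid rRNA, and the mix of RNA classes in a library depends on that choice. Liver holds hepatocytes, which secrete plasma proteins, and Kupffer cells, the resident macrophages, which clear red blood cells and make complement C1q.

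Replicate 3 stood against its labels in both kits. Clec4f, a lectin that marks Kupffer cells, had 2567 and 3034 CPM (the reads of a gene per 1000000 reads counted on genes in that library) in the NuG libraries labelled IP 1 and 2, 2532 CPM in the library labelled input 3 and 57.0 CPM in the library labelled IP 3. In Tru4 it had 6357 and 8485 CPM in those labelled IP 1 and 2, 8193 CPM in that labelled input 3 and 154 CPM in that labelled IP 3. Alb, serum albumin of hepatocytes, ran the other way, with 20697 CPM in the NuG library labelled input 3 against 51120 and 52347 CPM in inputs 1 and 2. Here the library labelled input 3 stands as IP 3 in both kits and that labelled IP 3 as input 3, an assignment that the study's own listing of feature numbers gives. Results are also given without replicate 3. Alb had 15080 CPM or more in all 6 IP libraries, so the hepatocyte marker and the Kupffer marker were both present in the IP RNA.

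NuG IP libraries held 5141329, 5319712 and 3223153 counts and Tru4 IP libraries 18031264, 28571125 and 36785680, so that 3 counts, the least taken as detectable, were 0.564 to 0.931 CPM in NuG IP and 0.0816 to 0.166 CPM in Tru4 IP. Of the reads on genes, on no feature or ambiguous, 26.0%, 26.4% and 27.6% fell on no feature in NuG IP against 14.6%, 7.63% and 9.42% in Tru4 IP. Across the tested genes, Spearman correlations were 0.945 to 0.952 within NuG, 0.955 to 0.982 within Tru4 and 0.766 to 0.838 between the kits. These are correlations across genes, which are not independent replicates.

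The kits gave different levels for about as many genes as not. In edgeR's quasi-likelihood test with Benjamini-Hochberg adjustment, 7337 of 14741 genes (49.8%) had an adjusted p under 0.05. NuG IP was higher for 3554 of them (24.1% of those tested) and lower for 3783 (25.7%), and 1100 and 1153 of these differed at least 4-fold. Without replicate 3, 2433 genes were higher and 2518 lower of 14850 tested, of which 2366 and 2476 were among those called with all 3 mice. With every library drawn down to 3223153 counts, 3322 genes were higher and 3239 lower of 12475 tested. The median log2 fold change (NuG IP over Tru4 IP) was -0.05. Counts of called genes in the classes and lists below stand beside these shares of all tested genes, 24.1% higher and 25.7% lower. Counts without replicate 3 stand beside 2433 higher and 2518 lower of 14850, which are smaller shares. A fall in a list's count without replicate 3 is therefore in part the fall seen over all genes. Values below are means of CPM or CPM per library, and fold changes carry the kit's scaling by the trimmed mean of M-values (TMM). Where a gene is said not to overlap between the kits, this describes its 6 libraries only. The share of all tested genes without overlap is not given here.

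**Figure D1:**
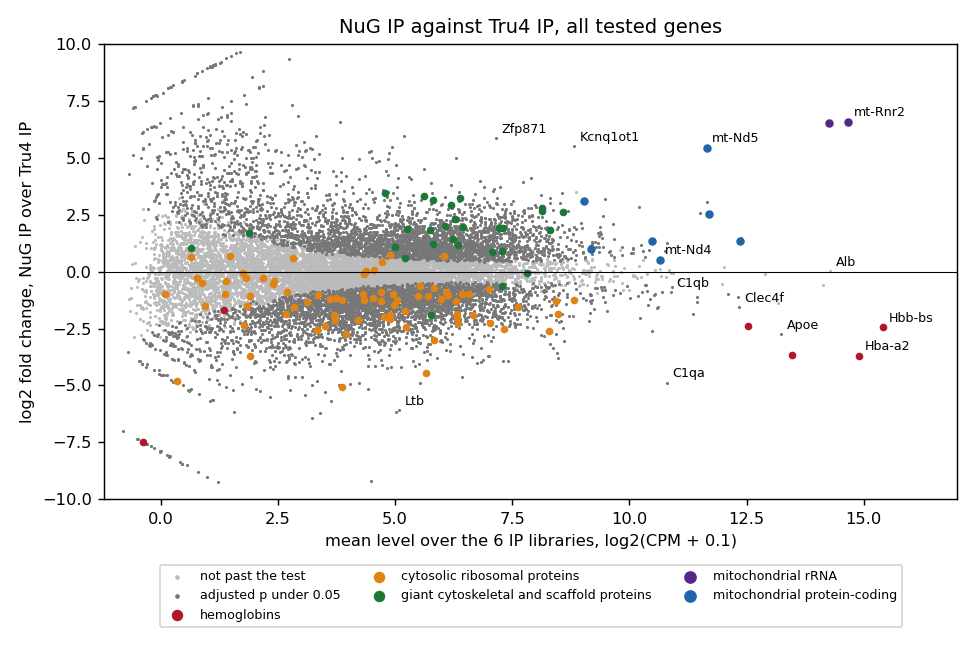
Each point is 1 of 14741 tested genes, with the log2 fold change of NuG IP over Tru4 IP (y) against the mean level over the 6 IP libraries as log2(CPM + 0.1) (x). Mitochondrial rRNAs lie at the upper right, hemoglobins and C1qa at the lower right, and Alb near 0 (0.02).

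Mitochondrial RNA separated the kits most by share of counts. The 12S and 16S rRNAs of the mitochondrial ribosome, mt-Rnr1 and mt-Rnr2, together took 13.2%, 6.74% and 7.36% of the counts in NuG IP and 0.118%, 0.0725% and 0.0829% in Tru4 IP. The lowest NuG library was far above the highest Tru4 library, and the means, 9.09% ± 3.54 and 0.0911% ± 0.0238 (SD, n = 3), stood in a ratio of 99.7. The two-sided exact permutation test of 3 against 3 libraries cannot go below p = 0.1 and gave that value. The larger rRNA, mt-Rnr2 (mitochondrial genome, 1094 to 2675, plus strand), had 73778, 39672 and 42028 CPM in NuG IP and 656, 422 and 460 CPM in Tru4 IP. Its log2 fold change was 6.58 (SE 0.48, adjusted p 7.65e-06, edgeR), and that of mt-Rnr1 was 6.53. In the input libraries the rRNA pair took 50.1% to 50.8% with NuG and 0.343% to 0.517% with Tru4. Every CPM of a NuG input library therefore counts against a total of which mitochondrial rRNA is the larger part.

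Mitochondrial tRNAs, which read the code of the mitochondrial mRNAs, were few in both kits. Of 22 in the files 4 were tested, and 3 of these were higher in NuG IP. The leucine tRNA mt-Tl1 had 7.0, 3.01 and 2.79 CPM in NuG IP and 0 CPM in each Tru4 IP library, at least 36.3-fold higher when the mean of the 3-count floors of Tru4 IP (0.118 CPM) is put in place of 0. The cysteine tRNA mt-Tc had 6.42, 3.76 and 5.59 CPM against 0.444, 0.140 and 0.163 CPM, with no overlap. The other leucine tRNA, mt-Tl2, had 1.75, 1.13 and 3.72 CPM against 0, 0 and 0.0544 CPM. The proline tRNA mt-Tp did not pass the test, at 8.95, 11.7 and 12.7 CPM in NuG IP and 8.37, 18.7 and 15.2 CPM in Tru4 IP.

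The 13 mitochondrial mRNAs encode subunits of the respiratory chain. Counts fell on only 7 of them in these libraries, and took 2.46%, 2.48% and 2.69% of NuG IP and 0.514%, 0.717% and 0.721% of Tru4 IP. The means were 2.54% ± 0.128 and 0.651% ± 0.118 (SD, n = 3), with an exact permutation p of 0.1, the smallest possible. Of 7 tested, 6 were higher in NuG IP (85.7%, against 24.1% of all tested genes) and none lower, with a median log2 fold change of 1.36. The sequence shown is from the mRNA with the largest kit difference among them, mt-Nd5 (mitochondrial genome, 11742 to 13565, plus strand), a subunit of complex I. It is coding bases 1081 to 1200, with G and C in capitals, from the GENCODE M21 transcript on GRCm38, and has 38.3% GC beside 37.1% for the whole transcript.
mt-Nd5: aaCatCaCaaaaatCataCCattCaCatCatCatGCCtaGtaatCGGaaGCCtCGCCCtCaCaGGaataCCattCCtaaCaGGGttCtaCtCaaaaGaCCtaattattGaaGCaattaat

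The level of mt-Nd5 was 7653, 4805 and 6431 CPM in NuG IP and 107, 163 and 153 CPM in Tru4 IP. That is 43.6-fold higher, a log2 fold change of 5.45 (SE 0.31, adjusted p 3.54e-06, edgeR). Its neighbour mt-Nd6, the subunit encoded on the opposite strand, had 985, 683 and 1158 CPM against 76.9, 117 and 125 CPM. Exons of these genes overlap on opposite strands, and the counting strand is not stated, so their reads cannot be fully assigned. The other complex I subunits differed less. For mt-Nd1 the log2 fold change was 1.36, for mt-Nd2 1.01 and for mt-Nd4 0.53, the last with an adjusted p of 0.0793 (edgeR). The NuG IP level of mt-Nd4 was 1671, 2185 and 1981 CPM, above all 3 Tru4 IP libraries with 1428, 1185 and 1171 CPM. Cytochrome c oxidase subunit mt-Co1 and cytochrome b, mt-Cytb, rose by 2.55 and 1.36 on the log2 scale. The mRNAs mt-Co2, mt-Co3, mt-Atp6, mt-Atp8, mt-Nd3 and mt-Nd4l are listed at 0 in all 6 libraries. The same holds in the IP libraries of TruSeq with 70 ng and SMART-Seq v4 with 4 ng. Reads with more than 1 alignment were left out of the counts, and their part in these zeros was not tested. With the mouse as a block, mt-Nd4 passed the test too (0.56, adjusted p 0.00817, edgeR).

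**Figure D2:**
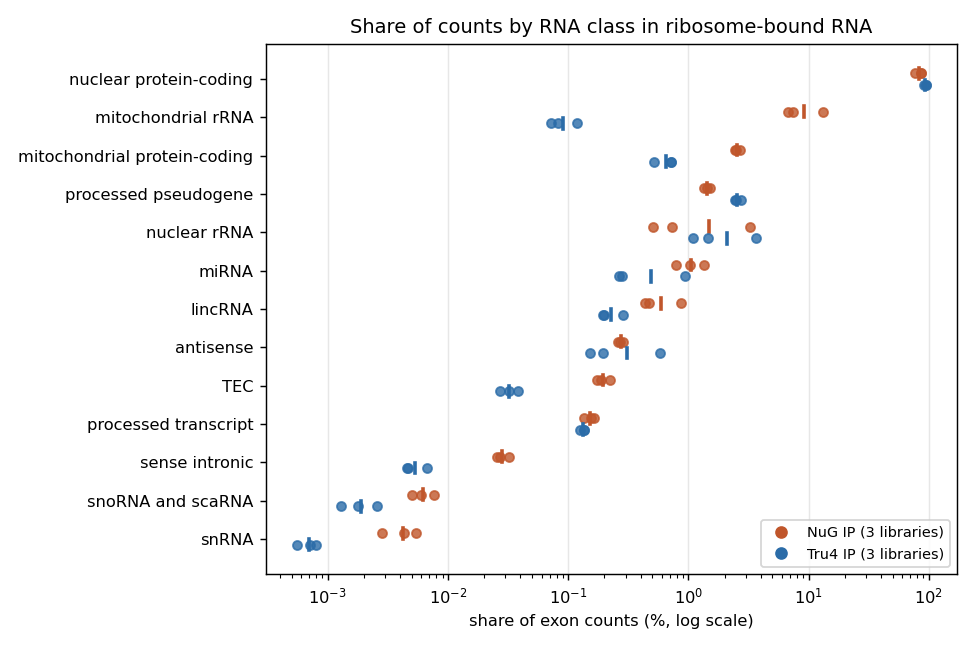
Share of exon counts (x, %, log scale) of 13 RNA classes in 3 NuG IP and 3 Tru4 IP libraries, 1 point per library and a bar at the mean of each kit. Mitochondrial rRNA runs from 6.74% to 13.2% in NuG IP and from 0.0725% to 0.118% in Tru4 IP.

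TEC and sense intronic genes were mostly higher in NuG IP. TEC genes, a GENCODE class of mostly single-exon regions with transcript evidence still to be tested, took 0.175%, 0.189% and 0.224% of NuG IP counts and 0.0269%, 0.0319% and 0.0383% of Tru4 IP counts, with no overlap. Of 263 tested, 182 were higher (69.2%, against 24.1% of all tested genes) and 2 (Gm13320 and 8430422M14Rik, named after their values were seen) lower. The median log2 fold change was 3.90, or 3.82 with the 16 genes at 0 in a whole kit set to their bounds. Of the 170 TEC genes inside a protein-coding gene on the same strand, 137 were higher, none was lower and the median was 4.58 (4.42 at the bounds). The 31 inside such a gene on the opposite strand had 19 higher and a median of 2.66, and the 62 outside had 26 higher and a median of 1.22. Sense intronic genes, whose transcripts lie in introns of a host on the same strand, had 23 of 36 higher (63.9%) and none lower, with a median of 4.32. Gm43189, a sense intronic gene on chromosome 3, had 43.4, 41.4 and 45.6 CPM in NuG IP and 0.555, 1.30 and 1.28 CPM in Tru4 IP. Reads of unspliced host transcripts and of the genes themselves are counted alike in such positions. Of 124 processed pseudogenes inside a gene on the same strand, 19 were higher and 50 lower (median -0.62). Of 772 outside, 99 were higher and 299 lower (median -0.88). The 144 inside on the opposite strand had a median of -0.89. For antisense genes the medians were 2.19 inside on the opposite strand and 0.77 outside, and for lincRNAs 2.24 and 0.68. Without replicate 3, 152 of 274 TEC genes and 23 of 38 sense intronic genes were higher.

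Long non-coding RNAs of the nucleus rose in NuG IP where they differed. Of 7 tested on a list of 11, 4 were higher (57.1%, against 24.1% of all tested genes), none was lower and the median log2 fold change was 1.51. Kcnq1ot1, the long antisense RNA that silences an imprinted domain (chromosome 7, 143203458 to 143296549, minus strand), had 937, 851 and 866 CPM in NuG IP and 20.1, 14.7 and 20.9 CPM in Tru4 IP. The difference was 45.2-fold (log2 fold change 5.50, SE 0.27, adjusted p 2.33e-06, edgeR). Malat1, a nuclear speckle RNA, had 1872, 1572 and 2764 CPM against 113, 205 and 534 CPM, and did not overlap between the kits (2.86, adjusted p 0.000404). Tug1, another nuclear RNA, was higher by 1.51, and Airn, the antisense RNA of the imprinted Igf2r domain, by 3.01 on the log2 scale. Neat1, the scaffold of paraspeckles, overlapped between the kits at 66.3, 24.3 and 137 CPM against 93.1, 47.7 and 122 CPM (-0.31, adjusted p 0.635), and Firre and Gas5 did not pass either. Gas5 passed with the mouse as a block (0.68, adjusted p 0.0276). Among classes, 67 of 194 antisense genes were higher and 6 lower, and 55 of 204 lincRNAs (27%) were higher and 13 lower, with medians of 1.03 and 0.76. The share of lincRNAs higher was near that of all tested genes (24.1%). Without replicate 3, 46 of 202 antisense genes were higher and 2 lower, and 33 of 213 lincRNAs were higher and 6 lower. Of all 14850 genes tested without it, 2433 were higher and 2518 lower.

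Other non-coding genes with large differences were Egfros, an antisense gene at the Egfr locus, with 39.7, 11.8 and 32.0 CPM in NuG IP against 0.277, 0.105 and 0.435 CPM in Tru4 IP, and the lincRNA Gm26584, with 93.2, 65.2 and 19.9 CPM against 0.277, 2.42 and 1.28 CPM. Both were picked among genes without overlap between the kits. Gm26584 overlaps exons of Slc7a2 on the opposite strand. Short RNAs went both ways. The snoRNA and scaRNA class had a share of 0.00504% to 0.00763% in NuG IP and 0.00128% to 0.00257% in Tru4 IP, and 3 of its 6 tested genes were higher (Snora23, Gm25776 and Gm22478, named after their values were seen).

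Rn7sk and Rpph1, both made by RNA polymerase III, were lower in NuG IP, while the snRNA class took a larger share. It held 0.00284%, 0.00543% and 0.00431% of the counts in NuG IP and 0.000715%, 0.000557% and 0.000802% in Tru4 IP, and its 1 tested gene, Gm29163, was higher. Of 4 tested genes of the misc_RNA class, Gm25545 and Gm26372 were higher and Rn7sk lower. Rn7sk, the 7SK RNA that holds a transcription elongation factor inactive, fell by 2.24 on the log2 scale (adjusted p 0.0146, edgeR), from 26.6, 7.63 and 9.41 CPM in Tru4 IP to 5.45, 2.82 and 1.55 CPM in NuG IP. Rpph1, the RNA of ribonuclease P, had 14, 8.27 and 4.34 CPM in NuG IP and 55.2, 13.8 and 15.1 CPM in Tru4 IP, overlapping by 1 library (-1.77, adjusted p 0.0386, and 0.0525 without replicate 3). Cytosolic rRNA was recorded mainly at CT010467.1, an rRNA gene on chromosome 17 that overlaps Gm42418 on the opposite strand, with 32508, 7290 and 5023 CPM in NuG IP and 36670, 11031 and 14512 CPM in Tru4 IP. Its kit difference was below the spread between mice (-0.57, adjusted p 0.539, edgeR), with the mouse as a block it passed (-0.83, adjusted p 0.00243), and replicate 1 was the highest library of both kits. Gm23935, a short gene with the miRNA biotype, was higher with 10188, 8084 and 6090 CPM against 5193, 1275 and 1416 CPM (1.46, adjusted p 0.0481, edgeR), but not without replicate 3 (adjusted p 0.125).

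Histone mRNAs were higher in part and lower in part, and no test compared their types. Replication-dependent histone mRNAs are made in S phase and as a rule end in a stem-loop in place of a poly(A) tail. Their list was drawn by gene name, and the mRNA end of each member was not checked. Of 15 tested, 7 were higher and 4 lower (26.7%, against 25.7% of all tested genes), with a median log2 fold change of 1.05. Without replicate 3, 4 of 16 were higher and 3 lower. Their summed level overlapped between the kits, at 172, 151 and 170 CPM in NuG IP and 257, 176 and 151 CPM in Tru4 IP. The linker histone Hist1h1e had 12.1, 13.7 and 13 CPM in NuG IP and 0.887, 0.630 and 1.44 CPM in Tru4 IP (3.64, adjusted p 0.000116, edgeR). Hist1h4d, Hist2h4 and Hist1h2bl were higher too, by 3.88, 3.28 and 4.93, while Hist1h1c and Hist1h2bc fell by 1.14 and 1.09 on the log2 scale. By the study's account SMART-Seq v4 selects poly(A) mRNA with oligo-dT primers. In its 4 ng IP libraries Hist1h1e had 35.3, 27.2 and 45.8 CPM and Hist1h4d 34.4, 27.5 and 53 CPM, above NuG IP. Hist2h4 had 0.417, 0.919 and 1.10 CPM there and Hist1h2bl 0, 0.102 and 0.116 CPM, below NuG IP. With a filter of at least 50 counts in 3 libraries, 6 members were left and the median was -0.06. Histone genes with poly(A) mRNA, the variants expressed outside S phase, were lower for 6 of 9 and higher for none, with a median of -0.79. Among them H3f3a fell by 2.62 and H1f0 by 0.79 on the log2 scale.

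Processed pseudogenes, copies of spliced mRNA in the genome, had more lower than higher genes. Their share was 1.52%, 1.42% and 1.35% in NuG IP against 2.74%, 2.42% and 2.48% in Tru4 IP. Of 1040 tested, 403 were lower (38.8%, against 25.7% of all tested genes) and 144 higher (13.8%, against 24.1%). The median log2 fold change was -0.86. Npm3-ps1, a copy of a nucleoplasmin gene, had 0.389, 0.188 and 0.310 CPM in NuG IP and 27.2, 17.1 and 17.4 CPM in Tru4 IP. Rpsa-ps2, a copy of a ribosomal protein gene, had 4.09, 1.69 and 3.72 CPM against 92.7, 86.8 and 87.2 CPM (-4.90, adjusted p 5.54e-06, edgeR). Lack of overlap between the kits was a condition for naming both. Rpl13a-ps1, Gm6900 and Gm12164 were lower by similar or larger amounts, between -5.69 and -4.93. Their reads can come from the parent gene, and reads with more than 1 alignment were left out of the counts, so these values are uncertain. The miRNA gene Gm24187 was also among the lowest (6.42, 10.3 and 6.21 CPM against 362, 61.0 and 73.0 CPM).

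Nuclear protein-coding genes took 76.9%, 86.2% and 85.4% of the counts in NuG IP and 90.9%, 94.7% and 94.1% in Tru4 IP. With mitochondrial and rDNA genes left out, the difference of the mean shares was -0.534 percentage points (exact permutation p 0.3). The 10 genes with the most counts took 23.7%, 14.7% and 15.3% in NuG IP and 31.7%, 21.4% and 21.6% in Tru4 IP. NuG IP detected 17715, 17841 and 18198 genes with at least 1 count and Tru4 IP 17467, 18899 and 21161, which did not separate the kits (exact permutation p 0.4). When all libraries were drawn down to 3223153 counts, 17094, 17178 and 18198 genes were detected with NuG and 15907, 16723 and 17430 with Tru4 (p 0.3). Of genes that are not protein-coding, 3851, 3807 and 4444 were then detected against 2622, 3094 and 3534 (p 0.1, the smallest possible), and protein-coding genes had p 0.6. With a minimum of 5 counts the kits did separate (exact permutation p 0.1 in both settings). As deposited, NuG IP then had 14579, 14764 and 14065 genes, below Tru4 IP with 15796, 17106 and 18218. Drawn down, it had 13638, 13761 and 14065, above Tru4 IP with 12873, 13498 and 13563. There were 9 genes with at least 10 counts in each NuG IP library and 0 in each Tru4 IP library, and 77 of the reverse kind in the deeper Tru4 IP libraries.

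Among 12627 nuclear protein-coding genes with a known length, long and AT-rich mRNAs were higher in NuG IP and short and GC-rich ones lower. By the longest annotated transcript, 229 of 306 genes over 10000 bases were higher and 8 lower (median 1.62), and 1382 of 2600 genes of 5000 to 10000 bases were higher (median 0.88). At the other end, 240 of 455 genes of 500 to 1000 bases and 20 of 34 genes up to 500 bases were lower, with medians of -1.15 and -1.21. By GC content, 361 of 736 genes at 35 to 40% GC were higher and 31 lower (median 0.80), whereas 1223 of 2210 at 55 to 60% and 300 of 429 at 60 to 65% were lower (medians -1.16 and -1.79). The 27 genes at 65 to 70% GC had 24 lower, 1 higher and a median of -3.05. Genes higher in NuG IP had a median length of 5249 bases and 45% GC, those lower 2405 bases and 54.6% GC, and those not called 3274 bases and 49.1% GC.

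Length and GC content each went with the difference when the other was held. At 40 to 45% GC, the median log2 fold change went from -0.40 at 500 to 1000 bases to 2.15 over 10000 bases. Within genes of 1000 to 2000 bases it went from 0.23 at 35 to 40% GC to -2.07 at 60 to 65%. Across the 12627 genes the Spearman correlation of the log2 fold change was 0.509 with length, -0.572 with GC content and 0.119 with the mean level, and length and GC content had -0.243 between them. With the median transcript length of each gene, the length classes ran from -0.71 up to 500 bases to 1.09 over 10000 bases. In the input libraries the same classes ran from -0.69 to 1.20 by the longest transcript, and those of GC content from 0.82 at 35 to 40% to -2.86 at 65 to 70%.

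**Figure D3:**
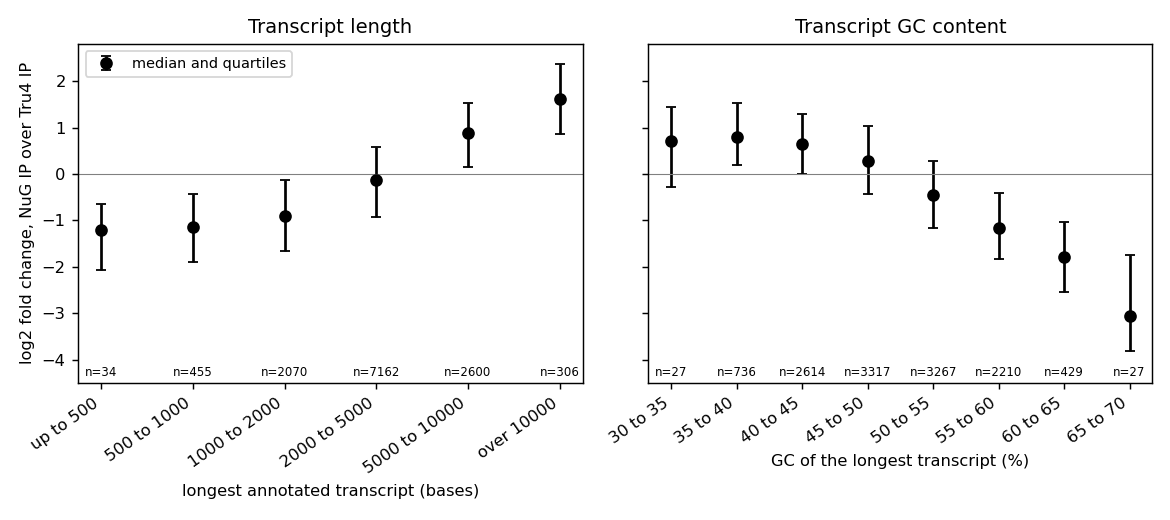
Median log2 fold change of NuG IP over Tru4 IP with quartiles (y) for nuclear protein-coding genes in classes of transcript length (left, bases) and GC content (right, %), with the number of genes printed at the foot of each class. The medians go from -1.21 to 1.62 over length and fall to -3.05 at 65 to 70% GC.

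The complement genes C1qa, C1qb and C1qc parted within 1 locus. They encode the 3 chains of C1q, the molecule that starts the classical complement pathway, and lie side by side on chromosome 4 (minus strand), from 136895917 to 136898803, from 136880129 to 136886187 and from 136889804 to 136893065. Their transcripts are 1040, 1088 and 1203 bases long with 59.5%, 57.4% and 57.5% GC. Stretches of the coding sequence follow because length and composition of the 3 genes were alike while the kit difference was not. They are coding bases 1 to 120 of C1qa, 601 to 720 of C1qb and 361 to 480 of C1qc, windows whose GC content (59.2%, 57.5% and 58.3%) is closest to that of the transcript, with G and C in capitals, from GENCODE M21 transcripts on GRCm38.
C1qa: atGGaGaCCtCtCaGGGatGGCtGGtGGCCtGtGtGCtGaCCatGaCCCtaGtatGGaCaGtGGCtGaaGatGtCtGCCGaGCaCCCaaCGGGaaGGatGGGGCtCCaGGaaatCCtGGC
C1qb: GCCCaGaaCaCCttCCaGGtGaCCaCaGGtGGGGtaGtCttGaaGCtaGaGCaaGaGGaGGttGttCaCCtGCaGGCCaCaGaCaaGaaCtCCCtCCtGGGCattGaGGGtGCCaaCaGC
C1qc: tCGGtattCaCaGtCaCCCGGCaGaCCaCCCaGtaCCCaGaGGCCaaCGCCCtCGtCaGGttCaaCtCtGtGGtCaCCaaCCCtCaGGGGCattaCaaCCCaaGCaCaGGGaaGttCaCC

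C1qa had 120, 143 and 110 CPM in NuG IP and 3647, 3454 and 3283 CPM in Tru4 IP, 29.3-fold lower (log2 fold change -4.87, SE 0.27, adjusted p 3.40e-06, edgeR). C1qb had 1099, 1570 and 1379 CPM against 1911, 2774 and 2653 CPM (-0.91, adjusted p 0.00414), and C1qc 814, 1653 and 1100 CPM against 1716, 2429 and 2252 CPM (-0.91, adjusted p 0.0121). None of the 3 overlapped between the kits, which for C1qa was a condition of its selection. The kit difference of C1qa was the larger by far. Without replicate 3, C1qa kept its value (-4.86, adjusted p 0.000181), whereas C1qb and C1qc no longer passed (adjusted p 0.0626 and 0.105). C1qb and C1qc were named after their values were seen. In the IP libraries of other protocols C1qa had 2635, 2466 and 2441 CPM (TruSeq with 70 ng) and 2206, 3542 and 3042 CPM (SMART-Seq v4 with 4 ng), and C1qb 2445, 3354 and 3134 CPM and 2090, 4906 and 4149 CPM. For C1qa every NuG IP library lay below all 9 libraries of the other 3 sets.

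On the whole list of Kupffer cell and macrophage genes, calls went in both directions. Of 16 tested, 7 were lower (43.8%, against 25.7% of all tested genes) and 1 was higher (6.25%, against 24.1%). The median log2 fold change was -0.13, and without replicate 3 there were 5 lower and none higher. Summed over the list, the levels were 13650, 20760 and 16528 CPM in NuG IP and 23142, 34236 and 30657 CPM in Tru4 IP. Clec4f had 2567, 3034 and 2532 CPM in NuG IP and 6357, 8485 and 8193 CPM in Tru4 IP (-1.55, SE 0.23, adjusted p 0.000259, edgeR). Cd5l, a secreted scavenger protein of macrophages, was lower by a similar amount, at 1234, 1887 and 1715 CPM against 2706, 4689 and 4512 CPM (-1.35). Folr2, a folate receptor, fell by 1.51 and Fcna, a ficolin, by 1.04 on the log2 scale. Vsig4, a complement receptor of Kupffer cells, was higher with 984, 1777 and 1627 CPM against 385, 888 and 841 CPM (1.02, adjusted p 0.0106), but missed the threshold without replicate 3 (adjusted p 0.0563). The growth factor receptor Csf1r, the iron exporter Slc40a1, lysozyme Lyz2, Adgre1 and Cd68 did not pass, with log2 fold changes between -0.08 and 0.22.

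Hemoglobin mRNAs of red blood cells were lower in NuG IP. Of 6 tested 5 were lower (83.3%, against 25.7% of all tested genes) and none higher, with a median log2 fold change of -3.04, or -2.40 with Hbq1b at its bound. Their summed level was 26039, 26420 and 16341 CPM in NuG IP and 209309, 142743 and 128644 CPM in Tru4 IP. The stretch shown is coding bases 1 to 120 of the alpha-globin Hba-a1 (chromosome 11, 32283511 to 32284465, plus strand), a short GC-rich transcript of 699 bases and 57.2% GC, with G and C in capitals, from GENCODE M21.
Hba-a1: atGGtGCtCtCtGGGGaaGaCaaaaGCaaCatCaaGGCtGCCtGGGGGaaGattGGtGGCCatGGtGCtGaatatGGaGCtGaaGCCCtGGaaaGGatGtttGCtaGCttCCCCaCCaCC

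Hba-a1 had 2096, 2110 and 1226 CPM in NuG IP and 31311, 15722 and 15889 CPM in Tru4 IP (-3.65, SE 0.44, adjusted p 8.37e-05, edgeR), and its near-identical copy Hba-a2 5115, 5798 and 3271 CPM against 74495, 49632 and 46351 CPM (-3.69). The adult beta-globin Hbb-bs had 16476, 16263 and 10382 CPM against 90311, 68577 and 59046 CPM (-2.43), and Hbb-bt fell by 2.38 on the log2 scale. None of these 4 overlapped between the kits. Hbq1b, a theta-globin, was at 0 in all NuG IP libraries and at 1.33, 1.09 and 1.6 CPM in Tru4 IP, at least 1.93-fold lower against the mean of the 3-count floors (0.693 CPM). Hba-a1 and Hba-a2 share sequence, as do both beta-globins, and reads that fit both were left out of the counts. Other erythroid genes did not move together. Alas2, the first enzyme of heme synthesis in red cells, fell by 1.48 on the log2 scale, Epb42, a membrane skeleton protein, was higher by 2.05, and Bpgm (-0.18) and Fech (0.47) did not pass. Fech passed with the mouse as a block (0.47, adjusted p 0.00591, edgeR). The level of hemoglobin in the SMART-Seq v4 and TruSeq 70 ng IP libraries was 13872 to 30901 CPM for Hba-a1 and 61738 to 104661 CPM for Hbb-bs. For Hba-a2 it was 46704 to 79295 CPM with TruSeq 70 ng but 14501 to 19174 CPM with SMART-Seq v4, between NuG and both TruSeq sets.

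mRNAs of the translation machinery and the respiratory chain were lower as groups. Of 77 cytosolic ribosomal protein genes tested, 47 (61%) were lower and 1 (Rpl15, 0.67) higher, with a median log2 fold change of -1.23, where 25.7% of all tested genes were lower. Rpl8, of the large subunit, had 92.0, 98.7 and 87.8 CPM in NuG IP and 637, 457 and 492 CPM in Tru4 IP (-2.60, SE 0.25, adjusted p 2.45e-05, edgeR). Rps9, Rps3 and Rpl4 were lower by less, at -1.87, -1.28 and -1.26. Rps2 and Rps16 were among the 10 lowest protein-coding genes, with 3.31, 4.70 and 6.21 CPM against 104, 83.1 and 99.9 CPM for Rps2, and both have many pseudogene copies, where reads with more than 1 alignment were left out of the counts. Of 74 nuclear-encoded respiratory chain genes, 48 were lower and none higher, with a median of -1.07. In that group Atp5a1 (-0.20), Atp5b (-0.06) and Sdha (0.15), of ATP synthase and complex II, overlapped between the kits and did not pass. Transcripts of both nuclear groups are short, with a median length of 1094 and 1003 bases. Without replicate 3, 38 and 36 genes were lower.

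Long mRNAs of large proteins were higher as groups. Of 28 giant cytoskeletal and scaffold proteins, 22 (78.6%) were higher and 2 lower (Plec and Flna, at -1.91 and -0.62), with a median log2 fold change of 1.86, where 24.1% of all tested genes were higher. Macf1, a linker of actin and microtubules with a transcript of 23495 bases, had 441, 560 and 483 CPM in NuG IP and 51.5, 81.6 and 72.3 CPM in Tru4 IP (2.8, SE 0.20, adjusted p 5.70e-06, edgeR). Huwe1, a ubiquitin ligase, Myo9a, an unconventional myosin, and Akap13, an anchoring protein of protein kinase A, were higher by 2.66, 2.64 and 1.84. Plec and Flna are long too, and went the other way. Chromatin regulators with long mRNAs had 22 of 30 higher and 1 lower (Chd3, a remodeller, at -1.19), with a median of 1.6. Kmt2e had 333, 507 and 525 CPM against 9.59, 35.8 and 31.8 CPM (4.13, adjusted p 1.97e-05), and the corepressor Ncor1, the acetyltransferase Crebbp and the methyltransferase Nsd1 were higher by 2.8, 2.43 and 1.48. Without replicate 3, 22 giant and 19 chromatin genes were higher. These lists were chosen for long transcripts, whose median lengths were 14460 and 9061 bases.

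Zinc finger proteins, mostly KRAB repressors of transposons, had 113 of 328 higher (34.5%, against 24.1% of all tested genes) and 29 lower (8.84%, against 25.7%), with a median log2 fold change of 0.71. Without replicate 3, 69 of 326 were higher and 19 lower. The stretch shown is from Zfp871 (chromosome 17, 32765496 to 32788287, minus strand), a zinc finger gene with a transcript of 10851 bases and 40.0% GC and one of the 10 highest fold changes among protein-coding genes. It is coding bases 121 to 240 with 40.8% GC, with G and C in capitals, from GENCODE M21.
Zfp871: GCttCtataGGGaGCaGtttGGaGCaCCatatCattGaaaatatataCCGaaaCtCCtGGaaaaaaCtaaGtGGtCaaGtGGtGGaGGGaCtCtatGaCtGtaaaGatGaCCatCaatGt

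Zfp871 had 208, 304 and 335 CPM in NuG IP and 3.61, 5.43 and 5.0 CPM in Tru4 IP, 57.6-fold higher (5.85, SE 0.24, adjusted p 7.48e-07, edgeR). Zfp568 and Zfp652 were higher by 1.48 and 0.95, and Zfp36, which encodes an mRNA decay factor with another kind of zinc finger, did not pass (0.34), but did with the mouse as a block (0.32, adjusted p 0.0395). In the TruSeq 70 ng and SMART-Seq v4 IP libraries, Zfp871 had 0.358, 4.30 and 4.27 CPM and 42.9, 31.4 and 42.8 CPM. The NuG IP libraries stood above both sets, and SMART-Seq v4 lay between NuG and both TruSeq sets.

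**Figure D4:**
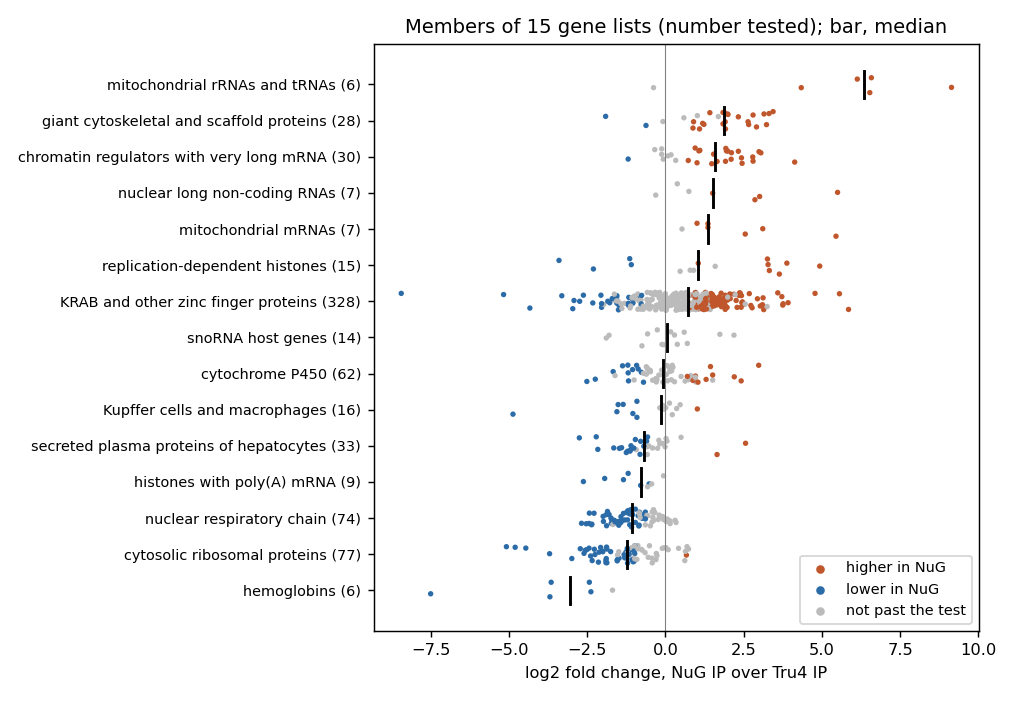
Log2 fold change of NuG IP over Tru4 IP (x) for the tested members of 15 gene lists (y, number tested), 1 point per gene coloured by call and a bar at each median. Hemoglobins (-3.04) and ribosomal proteins (-1.23) lie lowest, giant proteins (1.86) and mitochondrial rRNAs and tRNAs (6.33, or 5.66 with mt-Tl1 at its bound) highest.

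Plasma protein mRNAs of hepatocytes were mostly lower or not called. Of 33 tested, 18 were lower (54.5%, against 25.7% of all tested genes), 2 were higher and the median was -0.69. Without replicate 3, 11 were lower and 2 higher. Alb had 19317, 21474 and 20697 CPM in NuG IP and 15080, 21450 and 22133 CPM in Tru4 IP, with overlap and a log2 fold change of 0.02 (SE 0.25, adjusted p 0.954, edgeR). Apoe, the apolipoprotein that binds lipoprotein receptors, had 2253, 3136 and 2379 CPM against 14183, 18449 and 17482 CPM (-2.75, adjusted p 2.25e-05). Apob, the core protein of very low density lipoprotein, encoded by a transcript of 13934 bases, had 5066, 4690 and 5249 CPM against 812, 813 and 788 CPM (2.56, adjusted p 1.85e-05). The other gene of the list that was higher was Pzp, a large protease inhibitor, at 1.65, and Ahsg, fetuin-A, fell by 1.10 on the log2 scale. Among hepatocyte transcription factors, Cebpa had 39.7, 59.8 and 42.8 CPM against 259, 256 and 309 CPM (-2.60), Nr5a2 and Onecut1 were higher by 1.61 and 2.95, and Hnf4a, the master regulator of the hepatocyte, differed by 0.06 (adjusted p 0.816).

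Cytochrome P450 mRNAs, for enzymes of drug and sterol oxidation, had 11 of 62 higher (17.7%), 12 lower (19.4%) and a median of -0.08, both shares below those of all tested genes (24.1% and 25.7%). Cyp1a2 was higher by 0.96, Cyp3a11 fell by 0.70 on the log2 scale (adjusted p 0.0487, edgeR, and 0.0765 without replicate 3), and Cyp2e1 (-0.29) and Cyp2c29 (0.97) did not pass. With the mouse as a block Cyp2c29 passed (1.02, adjusted p 1.69e-05). Its level differed between mice in both kits, at 1622, 1418 and 579 CPM in NuG IP and 788, 697 and 256 CPM in Tru4 IP. Replicate 3 was the lowest of each kit. Scd1, a fatty acid desaturase, showed the reverse, with 2763, 3687 and 15575 CPM in NuG IP and 1891, 3824 and 17727 CPM in Tru4 IP. Its kit difference was -0.11 (adjusted p 0.915). Major urinary protein genes, a family of near-identical copies, had 1 of 8 higher, Mup18, at 28.0, 5.26 and 1.55 CPM against 1.5, 0.035 and 0.136 CPM, while Mup3, Mup10 and Mup20 did not pass. Mup10 did with the mouse as a block (-1.30, adjusted p 0.014, edgeR).

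Lists of rarer cells were short, and their counts stand beside 24.1% higher and 25.7% lower over all tested genes. Those without replicate 3 stand beside 2433 higher and 2518 lower of 14850. In T and NK cells 1 of 12 was higher and 4 were lower, and the chains of the T cell receptor complex went apart, Cd3e with 93.6, 106 and 94.0 CPM in NuG IP against 13.3, 23.6 and 32.3 CPM in Tru4 IP (2.06, adjusted p 8.30e-05, edgeR), Cd3d and Cd3g at -1.66 and -1.27. In B cells 4 of 10 were higher and 2 lower, with Cd79a at -2.20, Ighd at 1.10 and Igkc, the kappa light chain, at -0.09. Without replicate 3 none of the B cell genes was higher and 1 was lower. Neutrophil genes had 1 of 9 higher (the chemokine receptor Cxcr2, 1.97) and 2 lower (the granule genes Camp and Mpo), and 1 and 1 without replicate 3. Endothelial genes had 4 of 12 higher, among them the phosphatase Ptprb (2.37) and cadherin Cdh5 (1.01), and 3 lower (Eng, Egfl7 and Stab1). Without replicate 3, 1 endothelial gene was higher and 2 were lower, and Cdh5 lost its call (adjusted p 0.0522, edgeR). Stellate cell genes had 3 of 11 higher, with Rgs5 at 1.51 and Hgf at 2.65, and 1 lower, Ecm1. The summed level of the B cell list was 663, 1115 and 834 CPM in NuG IP and 559, 826 and 701 CPM in Tru4 IP, and that of the endothelial list 756, 1038 and 874 CPM and 412, 670 and 577 CPM.

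Among protein-coding genes with a mean level of at least 10 CPM, the lowest in NuG IP included Ltb, lymphotoxin beta, with 0.389, 0.752 and 2.48 CPM against 86.6, 47.7 and 66.3 CPM (-6.08, adjusted p 1.39e-05, edgeR). Nrgn, neurogranin, and Crlf2, a cytokine receptor chain with 65.6% GC, stood at -4.89 and -4.22. Zfp219, a zinc finger gene, fell by 5.17 on the log2 scale, and Gpx4, the peroxidase that guards against lipid peroxidation, by 4.36. Ccdc85b, at -4.98, and Zfp219 overlap a gene on the opposite strand. CAAA01147332.1, a gene on an unplaced scaffold, had 0, 0.188 and 0 CPM in NuG IP and 53.2, 40.0 and 40.6 CPM in Tru4 IP. All of these were picked for having no overlap between the kits. The highest were F830016B08Rik, a gene of the interferon-inducible GTPase family, with 72.2, 95.9 and 48.1 CPM in NuG IP and 1.05, 1.12 and 1.17 CPM in Tru4 IP (5.96, adjusted p 3.54e-06), and then Zfp871 and mt-Nd5. The corepressor Lcor had 142, 135 and 179 CPM against 3.27, 5.88 and 4.68 CPM (4.99). Cep85l, P2ry4, a nucleotide receptor, Inpp4b, a lipid phosphatase, Gm10800, 9930111J21Rik1 and Zc3h11a, an mRNA export factor, stood between 4.95 and 5.25. The Zc3h11a entry, with a transcript of 4396 bases, overlaps another entry of that name on the same strand by 4395 bases. Ambiguous reads were left out of the counts, so its level is uncertain. Lars2, the mitochondrial leucyl-tRNA synthetase, was among the 8 genes with the most counts in Tru4 IP, and did not pass at 7529, 5216 and 4161 CPM against 26778, 4910 and 6935 CPM. Replicate 1 of Tru4 lay apart from the rest, and with the mouse as a block Lars2 passed (-0.89, adjusted p 0.0204).

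Neither gene the mouse model rests on passed the test without a block. Gfi1, the driver of Cre, had 0.389, 0.752 and 3.41 CPM in NuG IP, where the first lies below and the second close to the 3-count floors of those libraries (0.584 and 0.564 CPM), and 0.499, 1.33 and 1.09 CPM in Tru4 IP (0.49, adjusted p 0.675, edgeR). Rpl22, the tagged ribosomal protein, had 74.5, 38.4 and 30.4 CPM against 140, 67.5 and 67.9 CPM (-1.03, adjusted p 0.0689), and with the mouse as a block -1.02 with an adjusted p of 0.000182. Gapdh, a common reference gene of glycolysis, had 1.95, 0.564 and 5.59 CPM against 0.111, 2.31 and 7.94 CPM, low in both kits. It has many pseudogene copies, and reads with more than 1 alignment were left out.

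A further comparison asked whether NuG differed from Tru4 in IP as it did in input, with the input libraries of the same mice. Of 15565 genes tested, 77 (0.495%) had an interaction past the threshold in edgeR's quasi-likelihood test with Benjamini-Hochberg adjustment, 22 (0.141%) higher and 55 (0.353%) lower in NuG IP than the input difference gives. With the mouse as a block there were 124 and 257, and with DESeq2 235 and 220, so that the balance of higher and lower depended on the tool. C1qa had 15.8, 15.2 and 13.4 CPM in NuG input and 54.2, 49.6 and 54.9 CPM in Tru4 input. The kit difference of C1qa was -0.86 in input and -5.05 in IP in this fit, an interaction of -4.19 (SE 0.26, adjusted p 2.56e-07). The interaction of its neighbour C1qb was -1.23. Hemoglobins did likewise, Hba-a1 with 85.1, 72.4 and 71.6 CPM in NuG input, 175, 157 and 160 CPM in Tru4 input and an interaction of -3.68, Hbb-bs with one of -2.41.

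The reverse was seen for mt-Nd5, with 15363, 14464 and 15531 CPM in NuG input and 3791, 4586 and 6163 CPM in Tru4 input. Its kit difference was 2.61 in input and 5.26 in IP, an interaction of 2.65 (adjusted p 0.000982, edgeR). Pycard, the inflammasome adaptor, differed from the input side. It had 4.41, 4.07 and 3.80 CPM in NuG input and 0.990, 0.352 and 0.848 CPM in Tru4 input, and its IP levels overlapped, at 26.7, 37.6 and 27.6 CPM against 33.9, 23.3 and 23.1 CPM. Fgd3, a guanine nucleotide exchange factor of Cdc42, had a kit difference of 1.77 in input and -1.46 in IP. Without replicate 1, 2 or 3 the interaction counts were 5 and 15, 0 and 1, and 1 and 3, with C1qa called in each of these fits. Median log2 fold changes in IP and input of this fit were -0.21 and -0.05 over all genes, 3.70 and 3.38 for TEC genes and -0.97 and -0.66 for processed pseudogenes.

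**Figure D5:**
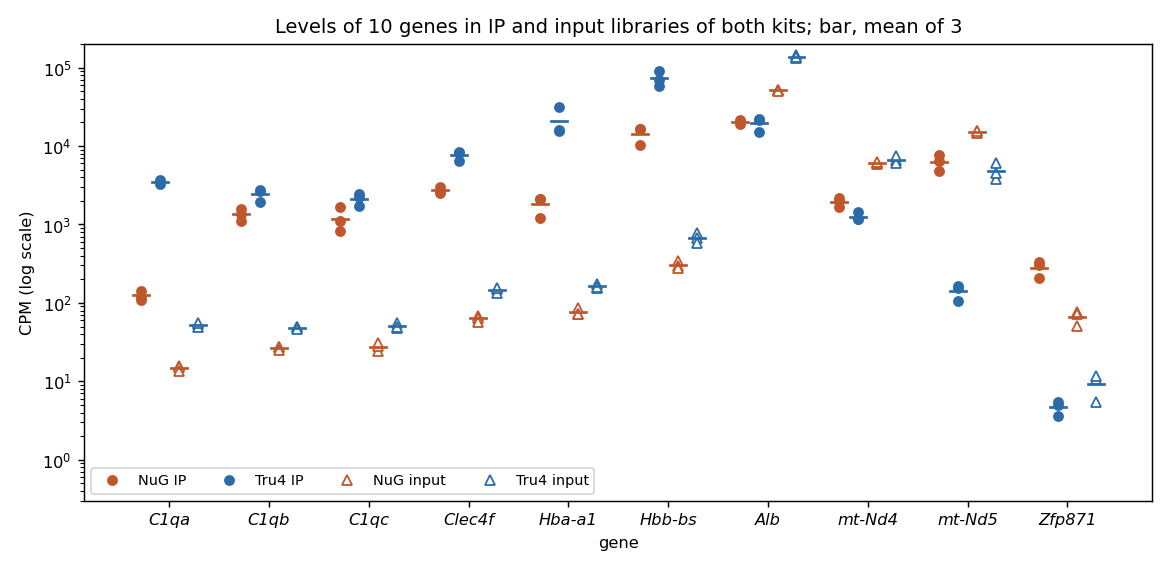
CPM on a log scale (y) of 10 genes (x) in IP (circles) and input (triangles) libraries of both kits, 1 point per library and a bar at the mean of 3. C1qa differs between the kits by a log2 of -5.05 in IP and -0.86 in input, and mitochondrial rRNA takes 50.1% to 50.8% of the counts in NuG input.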

How the data were processed

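RNA of liver homogenate (input) and of anti-HA precipitates (IP) of 3 mice was sequenced by the authors with several library protocols. The authors trimmed reads to 60 bases and, per the labels, aligned them with TopHat to GRCm38. The study's methods name both HTSeq and Bedtools for counting, and the closing lines of the deposited counts (no feature, ambiguous, alignment not unique) are of the kind HTSeq writes. The deposited files hold raw counts of reads per Ensembl gene without normalization, and deposited RPKM values were not used here. Reads with more than 1 alignment and ambiguous reads stood outside the counts. The strand setting is not stated.

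CPM was computed from the counts and their total per library. Closing lines for reads on no feature were kept out of totals and tests. Gene annotation, transcript length and GC content came from GENCODE M21, which holds 47310 of the 47729 genes, and the other 419 had none. Libraries were compared by kit with edgeR 4.0.16 in R 4.3.3 (TMM, filterByExpr, glmQLFit, glmQLFTest, Benjamini-Hochberg, threshold 0.05), without a block. The kit difference in IP against that in input was fitted on 12 libraries. Shares and numbers of detected genes were compared by two-sided exact permutation tests of 3 against 3 libraries. Tables were joined with pandas 2.3.3 and numpy 2.4.6 under Python 3.11.15, permutation tests ran in scipy 1.17.1, and plots were drawn by matplotlib 3.10.9.

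Replicate numbers marked the same mouse, and the same-numbered IP libraries of both kits deviated together over genes (r of 0.272, 0.217 and 0.371), so the mouse as a block was an alternative. The others were DESeq2 1.42.0, RLE factors, totals alone, filters, drawn-down counts, a fold limit of 1.5, nuclear protein-coding genes alone, all 14 groups in 1 fit, the fractions as labelled and each replicate left out. On simulated counts for the comparison of NuG IP with Tru4 IP (15081 genes), 96% and 90% of genes raised or lowered 4-fold, 24% and 10% of genes changed 2-fold, and 0.0605% of unchanged genes were called. The simulation gave every gene the common dispersion and changed 50 genes at each fold, far fewer than were called in the data. Its rates therefore need not carry over. The common biological coefficient of variation was 0.317. Floors of 3 counts cover counting error only, since PCR reads are not independent molecules.

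Named genes were the 10 highest and 10 lowest protein-coding genes and 6 and 6 other genes past the test with a mean of at least 10 CPM and no overlap between the kits, the 8 genes with the most counts in each kit, up to 4 genes per list by mean CPM, Gfi1, Rpl22 and Gapdh, and the 5 highest and 5 lowest protein-coding genes of the interaction with a mean of at least 10 CPM. P-values measure the spread between these libraries. Other genes were named after their values were seen, among them C1qb, C1qc, Vsig4, Folr2, Fcna, Pzp, the remaining mitochondrial genes and histones, and the list members given for counts of 5 or fewer. Results of a few genes under this rule are not reported here. The comparison, its members and the 26 lists were chosen with earlier results of these data known.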

Additional observations from a re-analysis of the deposited data

Results flagged for a closer look

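The kit difference of these results was not the same in IP as in input, by a test of the difference itself (the interaction of kit and fraction over 12 libraries, edgeR's quasi-likelihood test with Benjamini-Hochberg adjustment). Of 15565 genes, 22 were higher and 55 lower in NuG IP than the input difference gives. Values are interactions on the log2 scale.

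The lower genes include C1qa (-4.19), its neighbour C1qb (-1.23) and the other macrophage genes Clec4f (-1.51) and Cd5l (-1.41). The 4 abundant hemoglobins are among them too, Hba-a1 (-3.68), Hba-a2 (-3.18), Hbb-bt (-2.62) and Hbb-bs (-2.41). All of these are far higher in IP than in input by CPM in both kits. Pycard (-3.55) and Fgd3 (-3.23) are the remaining named ones.

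The higher genes include the mitochondrial mRNAs mt-Nd5 (2.65) and mt-Nd6 (1.69), whose exons overlap on opposite strands. Others are Cep85l (2.89), F830016B08Rik (2.7) and Sned1, an extracellular matrix gene (2.57). With the libraries as labelled none of these genes passed, and without replicate 2 C1qa alone did.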

How the results depend on the processing

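Counts of genes higher and lower in NuG IP were 3554 and 3783, and fell to 517 and 588 with the fractions as labelled and to 1338 and 2049 with all 14 groups in 1 fit. With 1 replicate left out they ran from 2433 to 3308 and from 2518 to 3596, the lowest without replicate 3. The other settings stayed within 1.5 times, with 2510 to 4029 higher and 2655 to 4332 lower. With the mouse as a replicate block there were 3901 and 4211, and 12 named genes were newly called and Hist1h2ak was lost (3.63, adjusted p 0.0537, edgeR).

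The interaction counts, 22 and 55, moved under every alternative, to 124 and 257 with the replicate block, 235 and 220 with DESeq2, 155 and 250 without a filter, and 0 and 0 as labelled, where 90 and 92 had an unadjusted p under 0.05 in edgeR. With 1 replicate left out they ran from 0 to 5 and from 1 to 15. As labelled, the interaction changed sign for mt-Nd5 (-0.28), mt-Nd6 (-0.46), Hbb-bs (0.00), Clec4f (0.14), Cd5l (0.07) and C1qb (0.03), where 1 library per group is of the other fraction by its markers.

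As labelled, the difference in share (NuG minus Tru4, percentage points) was 23.3 for mitochondrial rRNA, 1.54 for mitochondrial mRNAs, -23.7 for nuclear protein-coding genes, -1.34 for processed pseudogenes and 0.114 for TEC genes. Without mitochondrial and rDNA genes it was -0.534 for nuclear protein-coding and 0.192 for TEC genes. Of the fold changes of named genes under these settings, 1985 kept their side of the threshold, 181 lost and 30 gained the call. None changed sign where either fit made a call. Changes of sign among genes called in neither fit were not counted, as for Scd1 (-0.11, and 0.12 without replicate 3). With 3223153 counts in the shallowest library, genes near 0.931 CPM were at its detection floor.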
